A study of Mus musculus with 6 samples.

Results

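The mRNAs of 10 interferon-induced GTPases were followed in cultured primary mouse adipocytes: the guanylate-binding proteins (GBPs) Gbp2, Gbp3, Gbp4, Gbp5, Gbp6, Gbp7, Gbp9 and Gbp10, and the immunity-related GTPases (IRGs) Igtp and Irgm1. They were taken by gene symbol from a table of 35976 rows, and all 10 symbols were present. All 6 libraries came from adipocytes homozygous for Ppargc1a flanked by loxP sites, Ppargc1a(fl/fl), a gene that encodes the transcriptional coactivator PGC-1alpha. The 3 groups, of 2 libraries each, had received Cre virus and Rbm43 siRNA, GFP virus and Rbm43 siRNA, or GFP virus and control siRNA. Both viruses were adenoviruses, so all groups began from the floxed cells and had an adenovirus and an siRNA, and none was left uninfected. Cre is the recombinase that removes loxP-flanked DNA, and GFP is the control cargo. Rbm43 encodes an RNA-binding protein. After these treatments the cells were differentiated and RNA was taken in biological duplicate. Whether the duplicates came from separate animals is not given in the sources used here, so p-values measure the spread between libraries. A group of Cre virus with control siRNA was not analysed here.

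Interferons bind cell-surface receptors that signal through JAK kinases to STAT transcription factors, which enter the nucleus and switch on a large set of genes. GBPs and IRGs are among the most strongly induced of these in mouse cells. GBPs are large GTPases that assemble on the membranes of pathogens and of the vacuoles around them, and some carry a lipid anchor added by prenylation. IRGs are smaller GTPases: effector IRGs load onto parasite vacuoles, and regulatory IRGs such as Irgm1 and Igtp (also called Irgm3) stay on the cell's own membranes and hold the effectors inactive there. Both families are best known from macrophages and fibroblasts, and fat cells also answer interferon.

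The bases just upstream of the annotated starts are shown first, because they carry the elements through which interferon signalling is known to reach these genes. The RefSeq promoter table (build GRCm38.p6) held Gbp2, Gbp3, Gbp5, Gbp7, Igtp and Irgm1, 6 of the 10 members, and Gbp4, Gbp6, Gbp9 and Gbp10 are named only. The motifs GAAANNGAAA and TTCNNNGAA were searched on both strands in the 250 bases before each start. GAAANNGAAA is a pair of GAAA repeats of the kind bound by ISGF3 and IRF proteins, and TTCNNNGAA is the palindrome of the kind bound by STAT proteins, which reads the same on both strands. The motifs can overlap. Capitals mark matches to either motif, and runs of TTTC are GAAA read on the other strand. Where the annotated exon of another transcript covers a site, only the site and a few bases on each side are shown.
Gbp2 (chr3:142620594-142620623, + strand): actcttttagTTTCACTTTCactgtcttaa
Gbp3 (chr3:142559924-142560025, + strand): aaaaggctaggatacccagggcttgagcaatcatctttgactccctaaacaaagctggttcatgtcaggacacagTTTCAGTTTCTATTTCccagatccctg
Gbp5 (chr3:142496754-142496873, + strand): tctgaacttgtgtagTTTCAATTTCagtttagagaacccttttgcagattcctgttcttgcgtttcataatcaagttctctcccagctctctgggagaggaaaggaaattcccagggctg
Gbp7 (chr3:142530216-142530335, + strand): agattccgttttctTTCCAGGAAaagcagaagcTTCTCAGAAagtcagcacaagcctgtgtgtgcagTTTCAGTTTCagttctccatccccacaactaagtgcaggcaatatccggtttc
Igtp (chr11:58199436-58199555, + strand): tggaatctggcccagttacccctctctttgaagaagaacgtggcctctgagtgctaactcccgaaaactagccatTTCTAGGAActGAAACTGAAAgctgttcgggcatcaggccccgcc
Irgm1 (chr11:48871428-48871457, - strand): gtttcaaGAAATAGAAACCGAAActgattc

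GAAANNGAAA was present upstream of all 6 of these members, against 978 of 32851 promoters in the table, or 2.98%. Among related GTPases searched in the same way, Gbp2b, Irgm2, Tgtp1, Tgtp2 and Gm12250 also had it, and Ifi47, 9930111J21Rik1 and 9930111J21Rik2 did not. Gbp3 and Irgm1 each held 2 overlapping copies. The first copy began 59 bases before the start in Gbp2, 45 in Gbp3, 53 in Gbp7, 34 in Igtp and 30 in Irgm1, whereas in Gbp5 it began 165 bases before it. A further start listed for Gbp3 had no match to either motif. TTCNNNGAA was present in Gbp5, Gbp7 and Igtp, 3 of the 6, against 7.02% of promoters. Its matches in Gbp5 lie outside the bases shown. A match describes the letters only, and no binding was measured.

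The members sit in a few places in the genome (mm10, GENCODE M21 genes). Gbp5, Gbp7, Gbp3 and Gbp2 lie on the plus strand of chromosome 3 between 142493978 and 142638008. Gbp9, Gbp4, Gbp10 and Gbp6 lie on the minus strand of chromosome 5 between 105077630 and 105293698. Irgm1 lies on chromosome 11 at 48861968 to 48871683, minus strand, and Igtp on the same chromosome at 58199556 to 58207591, plus strand. Some share exonic bases with another annotated gene on the same strand. The largest overlaps were with Gm43302, which covers 1792 exonic bases of Gbp10 (46.3% of its own) and 1726 of Gbp6 (29.0%). Gm43802, a processed pseudogene, covers 637 bases of Gbp7 (11.3%), and Irgm2 shares 162 bases with Igtp (8.01%). The other overlaps on the same strand, among Gbp4, Gbp8 and Gbp9, were of 60 or 61 bases. Values of Gm43302 and Gm43802 were not used here.

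Gbp6 and Gbp10 are close to identical, which bears on how their reads were divided. Their coding sequences are of the same length, 1836 bases, and differ at 30 of them, an identity of 98.4%. The next closest pair, Gbp6 and Gbp9, were 89.6% identical. Of all 150-base stretches in the annotated transcripts of Gbp10, 49.7% also occur in Gbp6, and 29.0% of those of Gbp6 occur in Gbp10. For the other members that share was 0.739% (Igtp, with Irgm2), 0.0254% (Gbp4, with Gbp11) or 0. Only genes among the 35976 rows were counted as the other gene, so Gbp7 stood at 0 although it shares exonic bases with Gm43802. Shorter stretches are shared more often. Of 75-base stretches, 67.2% of those of Gbp10 and 42.7% of those of Gbp6 occur in another gene among these rows. For Igtp, Gbp9, Gbp4, Gbp3 and Gbp7 the share was 7.80%, 3.61%, 3.08%, 2.06% and 1.25%, and for the remaining members 0.955% or less. The 60 coding bases with the most differences between the pair, bases 1567 to 1626 counted from the start codon, show which reads can tell them apart. Capitals mark the 9 differing bases.
Gbp6: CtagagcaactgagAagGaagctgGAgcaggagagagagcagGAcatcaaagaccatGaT
Gbp10: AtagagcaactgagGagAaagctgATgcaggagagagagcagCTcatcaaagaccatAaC
How the authors counted a read that fits both genes is not given in the sources used here, so the separate values of Gbp6 and Gbp10 are uncertain and their sum is given beside them.

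Values are normalized counts, reads per gene divided by 1 size factor per library, from 15775398 to 21961724 reads in genes per library. One read was worth 0.878 to 1.217 normalized counts. A gene entered the limma test if 2 or more libraries had 10 or more normalized counts, which 14211 genes did, all 10 members among them. The labels were checked on the targeted gene. Rbm43 had normalized counts of 53.8 and 32.5 in cells with Cre virus and Rbm43 siRNA, 43.7 and 46.6 with GFP virus and Rbm43 siRNA, and 185 and 224 with GFP virus and control siRNA. Both groups with Rbm43 siRNA lay far below control siRNA. Ppargc1a was not lower in the libraries labelled Cre virus (463 and 469 normalized counts, against 399 and 423 with GFP virus and Rbm43 siRNA). Whole-gene counts include exons that Cre may leave in place and so are no check of excision, and Cre is used here as the label states.

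Marker genes were read in the same libraries. The 8 adipocyte markers summed to 230266 to 231982 normalized counts with Cre virus and Rbm43 siRNA, 273807 to 276104 with GFP virus and Rbm43 siRNA, and 192766 to 211097 with GFP virus and control siRNA, so the labelled cell type was present in every library. The 8 preadipocyte and fibroblast markers summed to 295595 to 303023, 278209 to 297798 and 322755 to 330319 in the same order of groups. Col1a1 alone had 229709 to 271898 over the libraries, and Dpp4 and Dlk1 had at most 11.7 and 42.7. Which cells expressed these genes was not tested. The 10 macrophage markers summed to 1747 to 1852, 1531 to 1784 and 1762 to 1817. The 6 endothelial markers summed to 319 to 355 normalized counts with Cre virus and Rbm43 siRNA, 284 in both libraries with GFP virus and Rbm43 siRNA, and 245 to 257 with control siRNA, with no overlap between groups. T and NK cell markers (8 genes) reached at most 2.43 in any library. Cd3d, Cd3g, Cd8a, Ms4a1, Flt3, Xcr1 and Clec9a were at 0 in all libraries. The 5 dendritic cell markers summed to 122 to 126 with Cre virus and Rbm43 siRNA and 131 to 132 with GFP virus and Rbm43 siRNA. With control siRNA they summed to 108 to 146. Most of that came from Zbtb46, the only 1 of the 5 tested, at 101 and 139 normalized counts with control siRNA. In bulk RNA, fewer cells of a type and less RNA per cell cannot be told apart.

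Most of the GTPases were expressed without any added interferon. Per kb of the transcript with the longest coding sequence, Irgm1 was the highest, with a mean level of 724 normalized counts per kb with Cre virus and Rbm43 siRNA, 729 with GFP virus and Rbm43 siRNA, and 625 with GFP virus and control siRNA. Gbp4 was the lowest, with 2.92, 2.74 and 2.33 per kb. With control siRNA the order of mean levels per kb was Irgm1, Gbp2 (412), Gbp3 (313), Igtp (224), Gbp6 (162), Gbp7 (125), Gbp9 (46.4), Gbp5 (21.4), Gbp10 (11.1) and Gbp4. Only Gbp6 and Gbp7 overlapped between neighbours there, with libraries at 139 and 185 per kb for Gbp6 and at 106 and 144 for Gbp7.
With GFP virus and Rbm43 siRNA Gbp3 (566 per kb) stood above Gbp2 (479 per kb), Gbp6 (317 per kb) above Igtp (292 per kb), and Gbp10 (43.4 per kb) above Gbp5 (30.8 per kb). The libraries of Gbp6 and Igtp lay close together in that group, at 317 and 317 against 314 and 270 per kb. With Cre virus and Rbm43 siRNA Igtp and Gbp6 could not be ordered, at 267 and 264 per kb.

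**Figure D1:**
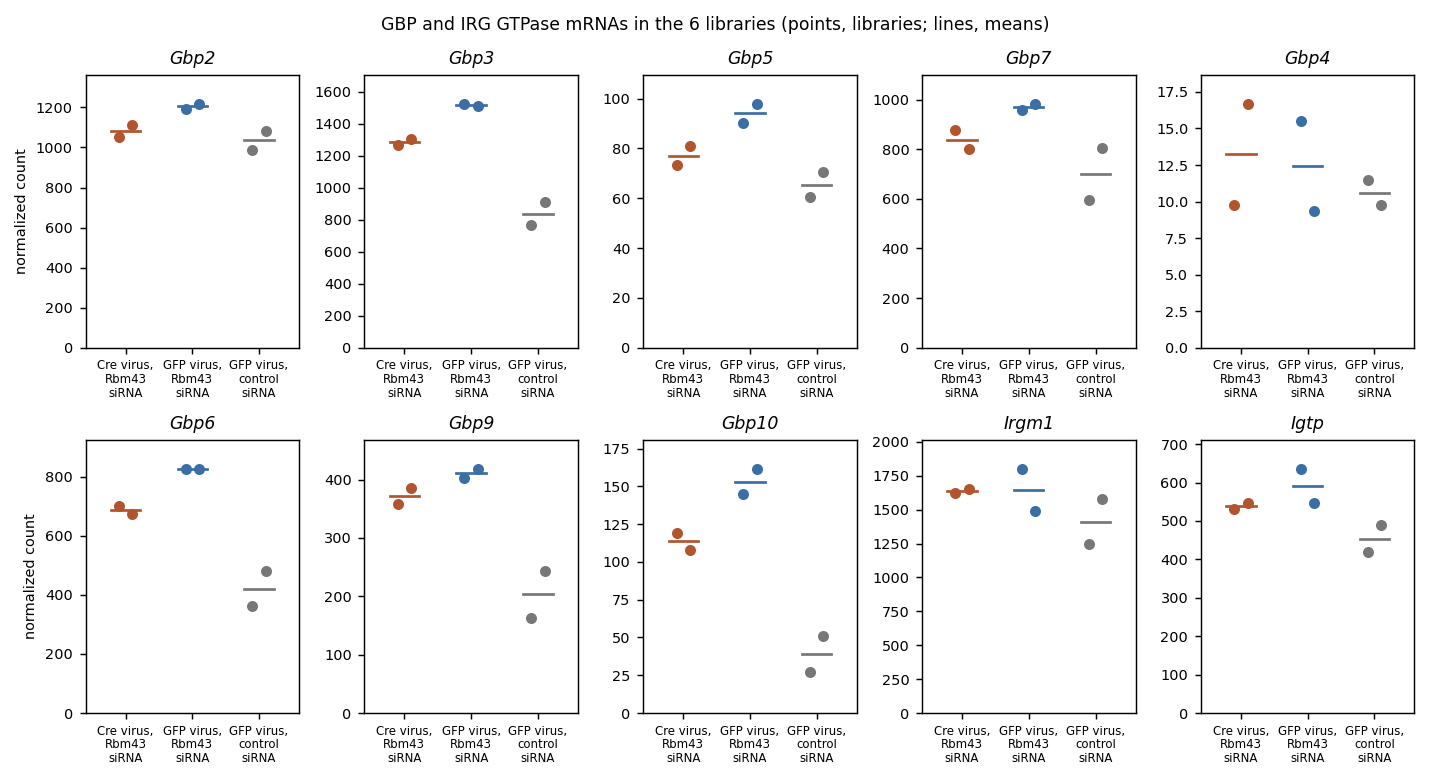
Normalized count of each of the 10 GTPase mRNAs (vertical axis, from 0) in the 6 libraries, by group. Points are libraries and lines are group means; the points of control siRNA lie below those of GFP virus with Rbm43 siRNA for all members except Gbp4 and Irgm1.

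The first comparison was between the siRNAs, in cells that all had GFP virus. With Rbm43 siRNA 8 of the 10 GTPase mRNAs rose and none fell, and the rises ran from 1.17-fold for Gbp2 to 4.02-fold for Gbp10. The 4 largest were Gbp10, Gbp9, Gbp6 and Gbp3, which include 3 of the 4 members on chromosome 5. Gbp4 and Irgm1 did not pass the test. The background was a rise in 13.5% and a fall in 9.76% of all genes tested (1914 and 1387 genes, or 1603 and 1861 with upper-quartile scaling, under which 8 members were also called). For 8 members both libraries with Rbm43 siRNA lay above both with control siRNA, as they did for 29.2% of all genes tested. The median log2 fold change was 0.50 over the members and −0.01 over all genes tested. Each log2 fold change is given with its standard error (SE), and p-values are adjusted over all genes tested.

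Among the chromosome 5 members, Gbp10 had 145 and 161 normalized counts with Rbm43 siRNA, against 27.0 and 51.1 with control siRNA. Both values with Rbm43 siRNA were far above the higher control value, and the log2 fold change was 2.01 ± 0.22 (adjusted p = 1.27e-06). Gbp6 had 826 and 826 normalized counts, against 362 and 481 with control siRNA. The groups did not overlap, and the log2 fold change was 0.98 ± 0.10 (adjusted p = 4.03e-07). Gbp6 and Gbp10, like Gbp7, have been linked to defence against bacteria in mouse macrophages.
Gbp9 had 403 and 418 normalized counts with Rbm43 siRNA, against 163 and 243 with control siRNA, a log2 fold change of 1.04 ± 0.13 (adjusted p = 7.82e-06). The 2 control libraries of Gbp9 were far apart and still both below. Gbp4 had 15.5 and 9.33 normalized counts with Rbm43 siRNA, against 11.4 and 9.74 with control siRNA. These values overlapped and came from 8 to 16 reads a library. The 95% interval of its log2 fold change ran from −0.71 to 1.07 (adjusted p = 0.812), so neither a rise like that of Gbp6 nor a fall was detectable at this depth.

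Among the chromosome 3 members, Gbp3 had 1525 and 1512 normalized counts with Rbm43 siRNA, against 768 and 909 with control siRNA. Its log2 fold change was 0.86 ± 0.07 (adjusted p = 3.92e-08), the smallest p among the members. Gbp7, which promotes autophagic and oxidative defence in mouse macrophages, had 958 and 983 normalized counts, against 594 and 806 with control siRNA. Its groups did not overlap, and its log2 fold change was 0.49 ± 0.10 (adjusted p = 0.00109).
Gbp5, a prenylated GBP known for promoting inflammasome assembly in macrophages, had 90.3 and 97.9 normalized counts with Rbm43 siRNA, against 60.3 and 70.6 with control siRNA. Its log2 fold change was 0.52 ± 0.17 (adjusted p = 0.0310). Gbp2, a prenylated GBP that coats Toxoplasma vacuoles, had 1193 and 1218 normalized counts, against 986 and 1085 with control siRNA. The groups did not overlap although the difference was small, a log2 fold change of 0.22 ± 0.06 (adjusted p = 0.0161).

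Of the regulatory IRGs, Igtp had 635 and 547 normalized counts with Rbm43 siRNA, against 418 and 489 with control siRNA. Its log2 fold change was 0.38 ± 0.09 (adjusted p = 0.00390). Irgm1 had 1799 and 1492 normalized counts, against 1245 and 1580 with control siRNA. The lower Rbm43 siRNA library lay below the higher control library, and the log2 fold change of 0.22 ± 0.09 did not pass (adjusted p = 0.0812, 95% interval 0.04 to 0.41).

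Not all 8 calls were equally firm. Gbp3, Gbp6, Gbp9 and Gbp10 stayed called under all 19 other settings, with a largest adjusted p of 0.0177, 0.0264, 0.0441 and 0.0286. In 1 of the 19, Gbp6 and Gbp10 were tested only as their sum. Without replicate 1 of GFP virus with Rbm43 siRNA 5 members were called, and Gbp2, Gbp5 and Igtp were not; DESeq2 on the recovered reads also called 5, and a fit without the mean-variance trend 4. The adipocyte marker sum was also higher with Rbm43 siRNA, where 6 of the 8 markers rose, and 3 of 10 macrophage markers (Csf1r, Itgam and Cd14) fell while none rose. Of 7 preadipocyte and fibroblast markers tested 3 fell (Vim, Pdgfrb and Col1a1) and none rose, and none of 6 endothelial markers was called. In the same comparison 13.5% of all genes tested rose and 9.76% fell. The part of any of these markers in the GTPase differences was not tested.

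The uncertain pair was also read as 1 gene. Gbp6 and Gbp10 together had 971 and 987 normalized counts with Rbm43 siRNA, against 389 and 532 with control siRNA, a log2 fold change of 1.10 (adjusted p = 1.39e-07). Gbp10 made up 14.9% and 16.4% of the pair with Rbm43 siRNA, against 6.95% and 9.61% with control siRNA. With Cre virus and Rbm43 siRNA its share was 14.5% and 13.8%. The share was higher in all 4 libraries with Rbm43 siRNA than in both with control siRNA.

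**Figure D2:**
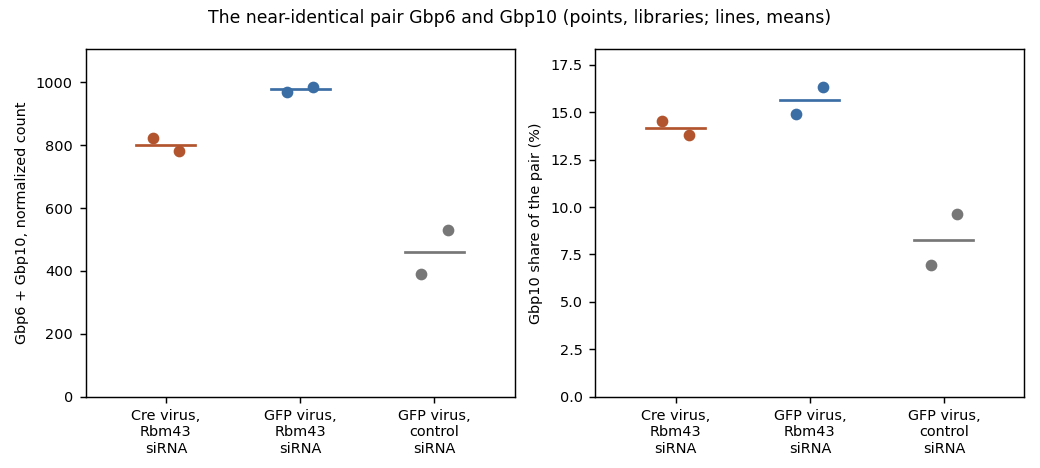
Summed normalized count of Gbp6 and Gbp10 (left) and the share of that sum assigned to Gbp10 in percent (right), by group. Points are libraries and lines are means; the share was 13.8% to 16.4% in the 4 libraries with Rbm43 siRNA and 6.95% and 9.61% with control siRNA.

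The second comparison was between the viruses, in cells that all had Rbm43 siRNA. Only Gbp3 fell and no member rose, against a fall in 5.88% and a rise in 2.62% of all genes tested (836 and 372 genes, or 734 and 565 with total scaling). Gbp3 had 1266 and 1306 normalized counts with Cre virus, against 1525 and 1512 with GFP virus, a log2 fold change of −0.24 ± 0.07 (adjusted p = 0.0387). That call was lost under 10 of 19 other settings, upper-quartile scaling (adjusted p = 0.0579) and DESeq2 (adjusted p = 0.0614) among them, and over all 19 its log2 fold change stayed between −0.26 and −0.21.
In 7 members, Gbp2, Gbp3, Gbp5, Gbp6, Gbp7, Gbp9 and Gbp10, both libraries with Cre virus lay below both with GFP virus. The same held for 27.5% of all genes tested. The median log2 fold change was −0.19 over the members and 0.00 over all genes tested.

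Gbp6 had 703 and 675 normalized counts with Cre virus, against 826 and 826 with GFP virus, a log2 fold change of −0.26 ± 0.10 that did not pass (adjusted p = 0.110). Gbp10 had 119 and 108 normalized counts, against 145 and 161 with GFP virus (log2 fold change −0.42 ± 0.22, adjusted p = 0.275). Gbp2 had 1051 and 1111, against 1193 and 1218 with GFP virus (log2 fold change −0.16 ± 0.06, adjusted p = 0.150).
In each of these genes the groups did not overlap. Gbp5 (73.4 and 80.8, against 90.3 and 97.9 with GFP virus), Gbp7 (877 and 800, against 958 and 983) and Gbp9 (358 and 386, against 403 and 418) also lay lower, with adjusted p-values of 0.368, 0.222 and 0.597. The IRGs overlapped: Igtp had 532 and 548 normalized counts with Cre virus, against 635 and 547 with GFP virus (adjusted p = 0.475). Irgm1 had 1622 and 1650, against 1799 and 1492 with GFP virus, and its log2 fold change was −0.00 ± 0.09 (adjusted p = 0.993).
Gbp4 had 9.79 and 16.7, against 15.5 and 9.33 with GFP virus (adjusted p = 0.944). A p that misses the threshold does not show that the virus groups were alike: the 95% interval of Gbp10 ran from −0.88 to 0.03. When only the 2 groups compared were fitted, 5 members fell, and without replicate 1 or replicate 2 of control siRNA, which take part only through the shared spread, 5 and 4 fell. Falls over all genes were also more frequent in these fits, at 1304, 1286 and 1294 of 14211, against 836 in the fit of all 6 libraries. Leaving out any single library with Rbm43 siRNA left none called. In this comparison 6 of 8 adipocyte markers also fell, and their part in the GTPase values was not tested.

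The third comparison sets both treatments (Cre virus and Rbm43 siRNA) against neither (GFP virus and control siRNA) and shares its libraries with the other two. In cells with Cre virus and Rbm43 siRNA 4 members rose relative to GFP virus with control siRNA, Gbp3, Gbp6, Gbp9 and Gbp10, and none fell. Of all genes tested, 8.47% rose and 6.28% fell. Gbp10 had 119 and 108 normalized counts, against 27.0 and 51.1 with control siRNA (log2 fold change 1.58 ± 0.22, adjusted p = 3.96e-05). Gbp9 had 358 and 386, against 163 and 243 with control siRNA (0.89 ± 0.13, adjusted p = 7.75e-05). Gbp6 had 703 and 675, against 362 and 481 (0.72 ± 0.10, adjusted p = 3.33e-05), and Gbp3 had 1266 and 1306, against 768 and 909 (0.62 ± 0.07, adjusted p = 5.1e-06). None of these groups overlapped. In the same comparison 3 of 8 adipocyte markers rose (Pparg, Fabp4 and Cidec) and 2 fell (Adipoq and Lep), 2 of 7 preadipocyte and fibroblast markers fell (Vim and Pdgfrb), and 1 of 10 macrophage markers fell (Cd14). Of 6 endothelial markers Kdr rose (log2 fold change 0.61 ± 0.13, adjusted p = 0.004). The part of these markers in the GTPase differences was not tested.

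In 7 members both libraries with Cre virus and Rbm43 siRNA lay above both with control siRNA, as in 27.4% of all genes tested; the other 3 of these 7 were Gbp5, Igtp and Irgm1. The median log2 fold change was 0.27 over the members and −0.00 over all genes tested. Igtp (log2 fold change 0.26 ± 0.09, adjusted p = 0.0622), Gbp7 (0.28 ± 0.10, adjusted p = 0.0681) and Irgm1 (0.22 ± 0.09, adjusted p = 0.110) did not pass. Gbp5, Gbp4 and Gbp2 had log2 fold changes of 0.24, 0.26 and 0.06, with adjusted p-values of 0.401, 0.759 and 0.574. Without replicate 2 of control siRNA, Gbp7, Igtp and Irgm1 passed as well and 7 members were called, whereas without the mean-variance trend 1 was.

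**Figure D3:**
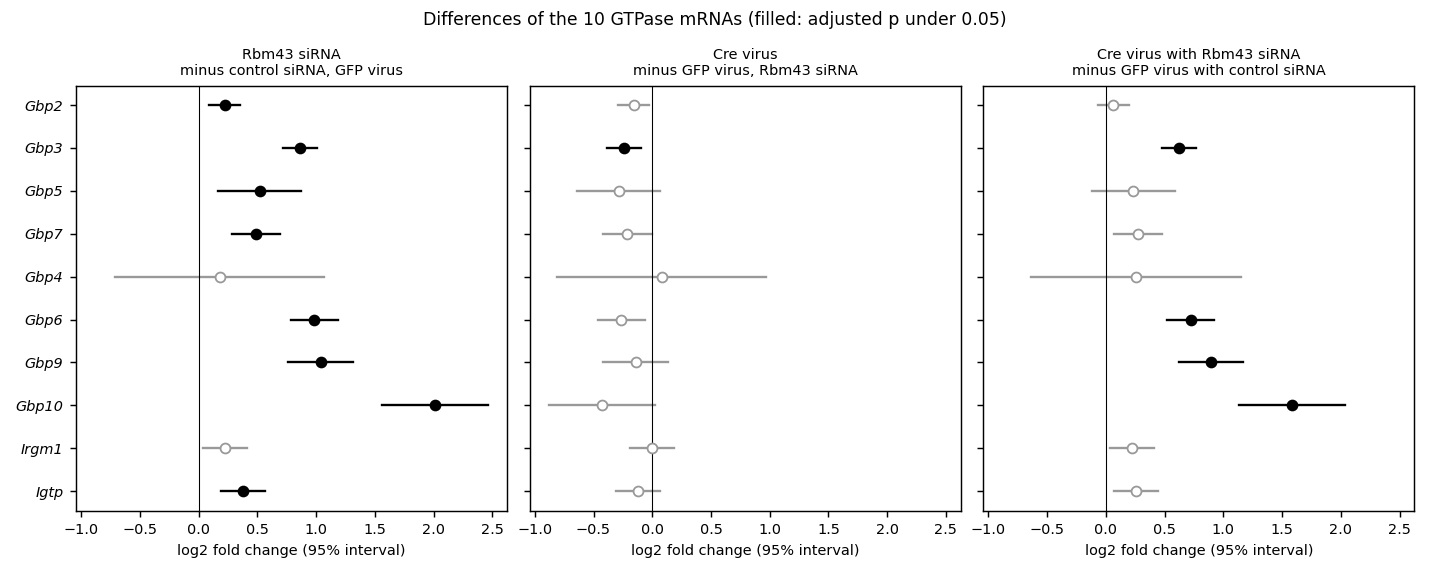
Log2 fold change of each GTPase mRNA (horizontal axis) with its 95% interval in the 3 comparisons. Filled points passed an adjusted p of 0.05: 8 members with Rbm43 siRNA against control siRNA, 1 with Cre virus against GFP virus, and 4 with both treatments relative to neither, the last of which shares libraries with the other panels.

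The control libraries differed from each other more than the others did in these genes. With control siRNA replicate 2 was higher than replicate 1 for 9 of the 10 members, with a median log2 difference of 0.29, against −0.00 over all genes tested. The difference was 0.89 for Gbp10, 0.57 for Gbp9 and 0.44 for Gbp7. In cells with Rbm43 siRNA the median difference over the members was 0.04 with Cre virus, where 7 of 10 were higher in replicate 2, and 0.01 with GFP virus, where 5 of 10 were. The 10 members summed to 6612 and 6682 normalized counts with Cre virus and Rbm43 siRNA, 7591 and 7265 with GFP virus and Rbm43 siRNA, and 4635 and 5724 with control siRNA. The sum was lowest in both control libraries, and the higher of these was still below the other 4.

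**Figure D4:**
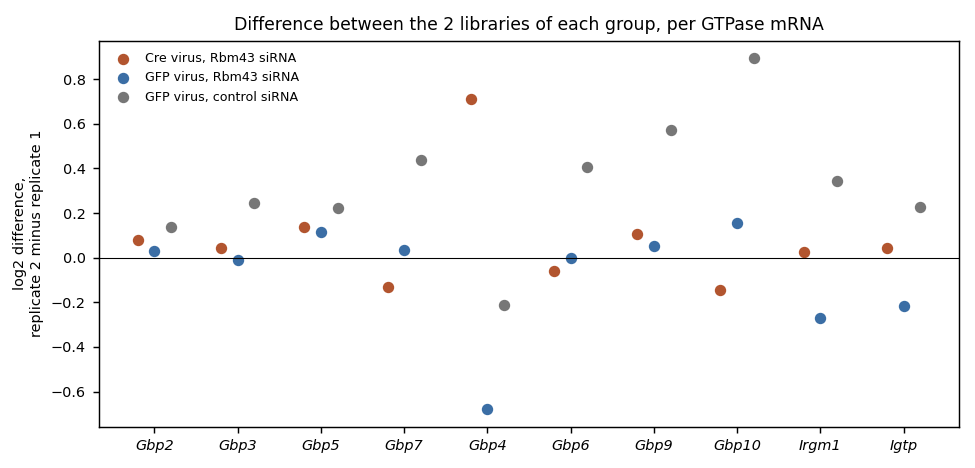
Log2 difference between the 2 libraries of each group, replicate 2 minus replicate 1 (vertical axis), for each GTPase mRNA, with 1 colour per group. With control siRNA 9 of the 10 points lie above 0, up to 0.89 for Gbp10.

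The rest of the GBP and IRG families and related interferon-induced GTPases held 17 genes, of which 14 were tested; Gbp2b, Gbp8 and 9930111J21Rik2 were too low. With Rbm43 siRNA against control siRNA (GFP virus) 5 rose, Iigp1, F830016B08Rik, Tgtp1, Ifi47 and Gbp11, and none fell. Of all genes tested 13.5% rose and 9.76% fell. The median log2 fold change was 0.29, against −0.01 over all genes tested. Iigp1, an effector IRG that loads onto parasite vacuoles, had 4215 and 4210 normalized counts with Rbm43 siRNA, against 2401 and 3009 with control siRNA (log2 fold change 0.65 ± 0.07, adjusted p = 2.56e-06).
Tgtp1, another effector IRG, had 12.6 and 17.7, against 4.16 and 3.65 with control siRNA (1.70 ± 0.43, adjusted p = 0.00703). Both control values lay below the 10 normalized counts of the filter. Tgtp1 passed that filter only through the libraries with Rbm43 siRNA, so its calls against control siRNA are given as a description. Its near-identical copy Tgtp2 had 229 and 210, against 143 and 215 with control siRNA, which overlapped (0.32 ± 0.15, adjusted p = 0.129), and how reads were divided between these copies is uncertain. Gbp11 rose by 0.57, Ifi47, an effector IRG, by 0.30 and F830016B08Rik by 0.64 on the log2 scale, with adjusted p-values of 0.0199, 0.0151 and 0.00145.

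The other 9 did not pass. Irgm2, the remaining regulatory IRG, had 1775 and 1633 normalized counts with Rbm43 siRNA, against 1167 and 1685 with control siRNA, an overlap like that of Irgm1 (0.28 ± 0.11, adjusted p = 0.0664). Gm12250, Gm4951, Gm4841, Mx2 and Gvin1 had log2 fold changes of 0.41, 0.23, 0.26, 0.22 and 0.04, and 9930111J21Rik1 had −0.11. Mx1, an antiviral GTPase of the dynamin family, stood on the other side. It had 20.6 and 26.4 normalized counts with Cre virus and Rbm43 siRNA, 35.9 and 43.8 with GFP virus and Rbm43 siRNA, and 48.9 and 66.9 with control siRNA.
The 3 groups of Mx1 did not overlap, and its log2 fold change with Rbm43 siRNA was −0.52 ± 0.25 (adjusted p = 0.152). Mx1 fell with both treatments relative to neither (−1.26 ± 0.25, adjusted p = 0.00155), where Iigp1 (0.33), Tgtp1 (1.73) and Ifi47 (0.26) rose. In that comparison 8.47% of all genes tested rose and 6.28% fell. With Cre virus against GFP virus Iigp1 was the only one called: it had 3240 and 3527 normalized counts, against 4215 and 4210 (−0.32 ± 0.07, adjusted p = 0.00949). Between the viruses 5.88% of all genes tested fell and 2.62% rose.

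The genes that signal to the GTPases were read in the order of the pathway. None of 9 interferon ligands was high enough to test. Ifnb1, at 0.979 and 0 with Cre virus and Rbm43 siRNA, 0 and 0.933 with GFP virus and Rbm43 siRNA and 0 and 1.22 with control siRNA, was the only one with any read, and Ifng, Ifna1, Ifna2, Ifna4, Ifnl2, Ifnl3, Ifnk and Ifne were at 0 in all 6 libraries. Of 6 receptor genes 5 were tested and none was called in any comparison. Ifnar1, a chain of the type I receptor, had 1661 and 1701 normalized counts with GFP virus and Rbm43 siRNA, against 1681 and 1694 with control siRNA, and the log2 fold changes of the 5 ran from −0.02 to 0.11 there.
Of the transcription factors of the pathway, Irf7, which is itself interferon-induced, had 2871 and 2458 normalized counts, against 1104 and 1271 with control siRNA (1.16 ± 0.07, adjusted p = 1.86e-09). Stat2 had 2594 and 2437, against 1901 and 2382 with control siRNA (0.24 ± 0.07, adjusted p = 0.0247). Both Irf7 and Stat2 passed the test there, and Irf7 rose by 1.08 also with both treatments relative to neither. The share of all genes tested that rose was 13.5% with Rbm43 siRNA and 8.47% with both treatments. Irf1, which acts on GBP promoters, had 623 and 636 normalized counts with Rbm43 siRNA, against 584 and 592 with control siRNA, and was not called.

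Of 7 genes that feed back on the pathway, Isg15 (log2 fold change 0.57 ± 0.08, adjusted p = 2.27e-05) and Usp18 (0.55 ± 0.14, adjusted p = 0.00870) rose with Rbm43 siRNA. Usp18 removes ISG15 from proteins and dampens type I receptor signalling. The suppressors Socs1 and Socs3 were not called. Isg15 rose also with both treatments relative to neither (0.42 ± 0.08, adjusted p = 0.000975). These calls stand beside a rise in 13.5% of all genes tested with Rbm43 siRNA and in 8.47% with both treatments.

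Among partners of the GTPases in the cell, the called shares are read against the 13.5% of all genes that rose and the 9.76% that fell with Rbm43 siRNA. Of 14 autophagy and ubiquitin genes, whose products help place GBPs and IRGs on membranes, 2 rose, a share near the background, and 4 fell with Rbm43 siRNA. Atg5 (0.26, adjusted p = 0.0136) and Traf6 (0.25, adjusted p = 0.0174) rose, and Atg12 fell by 0.23 and Map1lc3b by 0.18 on the log2 scale (adjusted p = 0.00593 and 0.00929); Gabarapl1 and Sqstm1 also fell. With Cre virus against GFP virus none of the 14 was called, and with both treatments 2 rose (Traf6 and Atg5) and 4 fell (Atg12, Map1lc3b, Gabarapl2 and Sqstm1). With both treatments 8.47% of all genes tested rose and 6.28% fell. Of 6 prenylation genes Rce1, the protease that trims prenylated proteins, fell with Rbm43 siRNA (−0.55 ± 0.13, adjusted p = 0.00430). None of these 6 was called in the other comparisons. Of 8 inflammasome genes 6 were tested and none was called in any comparison, with Casp1 the nearest at 264 and 310 normalized counts with Rbm43 siRNA, against 236 and 241 with control siRNA (adjusted p = 0.0892).

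**Figure D5:**
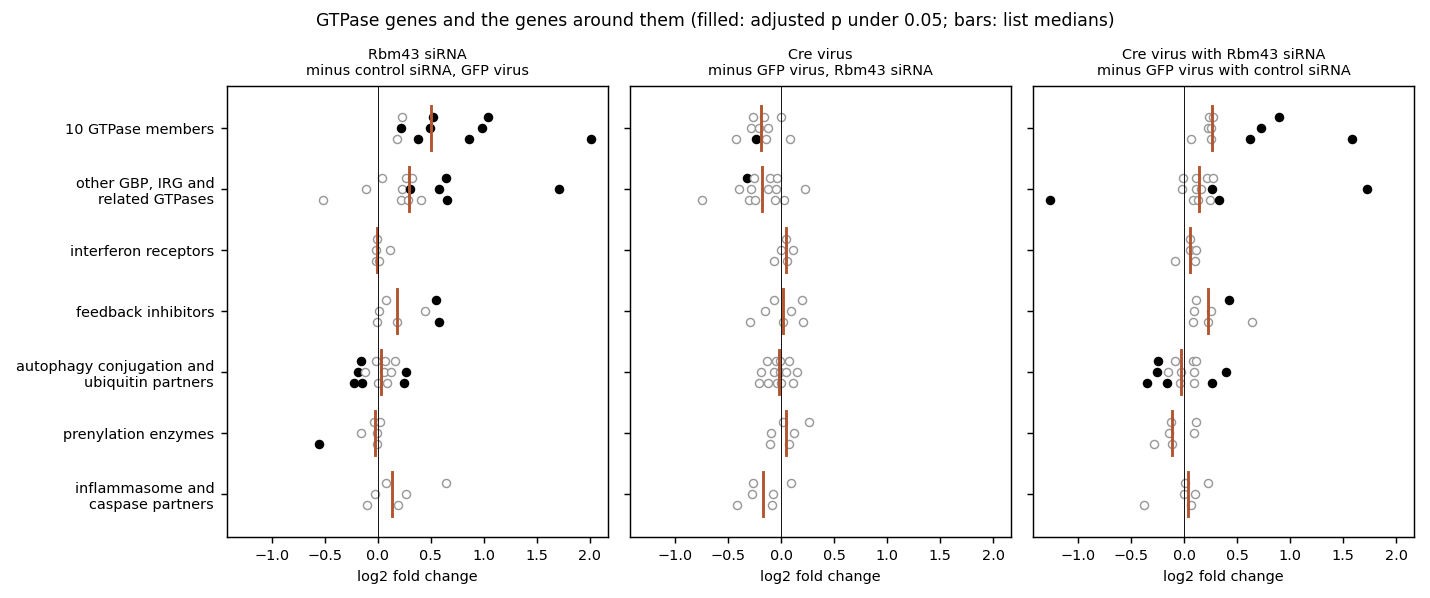
Log2 fold changes (horizontal axis) of the 10 GTPases, the other GBP, IRG and related GTPases, and the genes of their pathway, in the 3 comparisons. Each point is a gene, filled where it passed an adjusted p of 0.05, and bars are list medians; with Rbm43 siRNA against control siRNA the medians were 0.50 over the 10 members and 0.29 over the other GTPases.

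Genes beside the clusters were compared as neighbours. The nearest tested gene outside the GTPase lists on each side of the 4 regions gave 8 genes, Pdlim5, Kyat3, Zfp951, Lrrc8b, Trim7, Gm12185, Mrpl22 and Zfp692. With Rbm43 siRNA only Mrpl22, a mitochondrial ribosomal protein gene 19976 bases before Igtp, rose (0.48 ± 0.08, adjusted p = 0.000169). That share of the 8 is near the 13.5% of all genes tested that rose. The flanks of the chromosome 3 cluster, Pdlim5 and Kyat3, had log2 fold changes of 0.10 (adjusted p = 0.174) and 0.31 (adjusted p = 0.0541). Those of the chromosome 5 cluster, Zfp951 and Lrrc8b, had −0.24 and −0.20 (adjusted p = 0.442 and 0.211). With Cre virus against GFP virus Pdlim5 rose by 0.26 and Mrpl22 fell by 0.27 on the log2 scale, and with both treatments Pdlim5 rose by 0.36. Of all genes tested 2.62% rose and 5.88% fell between the viruses, and 8.47% rose with both treatments.

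The pattern over the 6 libraries was compared with that of every other gene whose mean was at least 50, as a description. The profile was the mean of the 10 members, each scaled to the same spread. Pearson's r of single members with it ran from 0.348 for Gbp4 to 0.975 for Gbp6 and Gbp3. Of 11620 candidates 129 had an r above 0.95, and the highest were Hipk1 (0.998), Plekhg1 (0.997), Ntrk2 (0.996), Eif2ak2 (0.996) and Rtp4 (0.994). The points share 3 groups, so a gene that differs between groups in the same order scores high. Rtp4 had 1318 ± 51.7 normalized counts with Cre virus and Rbm43 siRNA, 1546 ± 107 with GFP virus and Rbm43 siRNA, and 958 ± 122 with control siRNA (SD, n = 2 each), the same order as the members' sum. Eif2ak2, the kinase activated by double-stranded RNA, had 2369 ± 94.4, 2511 ± 39.7 and 2015 ± 169 in that order of groups. Hipk1 had 2399 ± 37.7, 2461 ± 32.3 and 2251 ± 88.5, and Plekhg1 had 126 ± 7.41, 151 ± 6.99 and 91.8 ± 16.5. Ntrk2 had 349 ± 8.67, 396 ± 11.9 and 266 ± 40.6.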

How the data were processed

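RNA was measured by poly(A) RNA sequencing in 6 libraries, from a stranded kit per the labels' protocols. What the authors deposited is a signal: counts of reads in each gene after division by a library-specific size factor. Per the submitters' processing notes the tools included STAR 2.7.8, fastp 0.23.2 and DESeq2 2.11.40.7, and the build was mm10. Which program counted genes, on which annotation and strand, is not given in the sources here. All deposited values were whole multiples of 1 read within 0.01 read (100% in each library), which gave back whole reads.

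Groups came from the sample labels. In R 4.3.3, limma 3.58.1 (trend on mean expression) was fitted to log2(normalized count + 1) of the 14211 genes that reached 10 in 2 or more libraries. All 3 groups were in 1 fit (3 residual degrees of freedom), with Benjamini-Hochberg adjustment at 0.05. This scale understates changes of low genes. On the recovered reads edgeR 4.0.16 called 3263, 1336 and 2111 genes in the 3 comparisons, against 3301, 1208 and 2096 with limma. Procedures were tested on simulated data. Other settings were pseudocounts of 0.5 and 5, no filter or a minimum of 50, other scalings, a replicate block, only the 2 groups compared, no trend, edgeR, DESeq2 1.42.0, Gbp6 and Gbp10 (and Tgtp1 and Tgtp2) summed, and each library left out.

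The members and the gene lists were chosen with earlier results of these data known. Named were all members, other tested GTPases, up to 4 genes with the smallest p per pathway list (Ifnar1, Irf1, Ifnb1, Socs1, Socs3, Gabarapl1, Gabarapl2, Sqstm1 and single marker genes were added after their values were seen), flanking genes and the 5 most similar patterns. Results for some genes of the lists are not reported here.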

Additional observations from a re-analysis of the deposited data

How the results depend on the processing

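With Rbm43 siRNA against control siRNA (GFP virus) the count of called members was 8 and lay between 6 and 9 under the other settings, except 4 without the mean-variance trend and 5 with DESeq2. Where Gbp6 and Gbp10 were summed, their sum was counted for both. Leaving out 1 library gave 5 to 9, with 5 without replicate 1 of GFP virus and Rbm43 siRNA. With Cre virus against GFP virus (Rbm43 siRNA) the count was 1. It was 0 with no filter, upper-quartile, total or quantile scaling, no trend or DESeq2, 2 with edgeR, 5 when only the 2 groups compared were fitted, and 0 to 5 with 1 library left out. With no trend none of the 14211 genes was called in that comparison. With both treatments against neither it was 4, and 1 with no trend, and 4 to 7 with 1 library left out (7 without replicate 2 of control siRNA). Over all genes, calls in the 3 comparisons were 3301, 1208 and 2096, and ran from 1304 to 3633, from 0 to 2083 and from 433 to 2654 under the other settings, lowest in each without the trend. The cause of these changes was not tested.

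Signs turned in 10 log2 fold changes, all of members not called. With 1 library left out, Gbp4 ran from −0.162 to 0.517 (Rbm43 siRNA against control siRNA), from −0.277 to 0.437 (Cre virus against GFP virus; −0.26 without replicate 2 of GFP virus and Rbm43 siRNA) and from −0.0995 to 0.614 (both treatments against neither). Irgm1, with Cre virus against GFP virus, was at 0.0129, 0.0133 and 0.0227 with upper-quartile, quantile and total scaling, and ran from −0.137 to 0.132 with 1 library left out (0.01 without replicate 1 of Cre virus). Gbp2 was at −0.00498 with both treatments without replicate 1 of control siRNA. Gbp4 was not tested under a minimum of 50.

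Same-numbered libraries did not deviate together across genes, with correlations of 0.02, −0.04 and −0.04. These values cannot show whether same-numbered libraries shared an origin, which is not given in the sources used here. With the replicate block 9, 1 and 6 members were called in the 3 comparisons, and 3412, 1304 and 2214 genes in all. Quantities of 8 to 19 reads limit Gbp4.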
